A study of Prunus persica with 21 samples.

Results

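The genes described here form the late set of a time course in peach (Prunus persica var. Big Top): 52 of the 27107 genes in the count table stayed near their t0 level at 1 and 24 h after spraying with either of 2 peptides, and stood at 1.8 times t0 or more at 48 h with both. The only one that the files pair with a name, ATPAP15, had mean levels of 30.6 CPM (the count over the total of its column, times 1000000) at 48 h after PpPep1 and 25.3 CPM at 48 h after PpPep2, against 13.7 CPM at t0. Over the 52 genes the median ratio to t0 was 2.24 at PpPep1 48 h and 1.95 at PpPep2 48 h. All 52 are protein coding.

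PpPep1 and PpPep2 are synthetic copies of peptides that peach itself makes. Plant elicitor peptides of this kind are cut from precursor proteins after damage, are sensed at the cell surface by receptor kinases called PEPRs, and raise the defence state of the leaf. Genes that respond within the first hour are known to include signalling and transcription factor genes, whereas the products of later genes include enzymes that act on metabolites and the cell wall.

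Juvenile plants were sprayed with PpPep1 at 100 nM or PpPep2 at 1000 nM on their youngest expanded leaves, and blades without the central vein were taken 1, 24 and 48 h later. Untreated leaves (t0), which the sample labels call mock, served as the control for all 3 times. With 3 biological replicates in each of the 7 groups PpPep1 1 h, PpPep1 24 h, PpPep1 48 h, PpPep2 1 h, PpPep2 24 h, PpPep2 48 h and t0, there were 21 libraries. No leaves left unsprayed for 48 h were among them, so the peptide cannot be told apart from the time passed since t0. By RT-qPCR of selected genes, the study reported no significant change between mock plants sampled at the same times. None of the genes described here was among those assayed. The blade is a mixture of cell types, so more RNA per cell and more cells of a type cannot be told apart either.

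Members were chosen from mean CPM: a t0 mean from 1 to 800, ratios to t0 from 0.67 to under 1.5 at 1 h and at 24 h with both peptides, and ratios of at least 1.8 at 48 h with both. The levels relative to t0 given below are thus those that chose the genes and carry no test. Of 15509 genes inside the t0 limits, 12274 were flat at 1 and 24 h. Of these, 125 reached 1.8 times t0 at PpPep1 48 h and 68 at PpPep2 48 h, and the 52 members are 41.6% of the first set and 76.5% of the second. A further 73 genes passed at PpPep1 48 h alone and 16 at PpPep2 48 h alone.

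Some libraries go against the headings of their columns. The total and the number of genes holding 25% of the counts were set against the mapping statistics of each library, and 12 of the 21 columns fitted the library they are headed as. The other 9 fitted 1 library each, and 0 of the 9 fitted the one in their heading. Columns headed PpPep1 48 h were therefore read as PpPep2 1 h, those headed PpPep2 1 h as PpPep2 24 h, and those headed PpPep2 24 h as PpPep1 48 h. With the headings as they stand, the rule finds 0 genes. With the 12 fitting columns alone, which are those of t0, of PpPep1 at 1 h, of PpPep1 at 24 h and of PpPep2 at 48 h, an alternative chosen after seeing the data, it finds 118 genes. These include the 52 members by construction, since conditions were only dropped, so the overlap says nothing about the 9 columns. The 6 libraries of 48 h also carried another series of library numbers and ran on other flowcells than the 15 others, so 48 h and the library series cannot be told apart. Library totals ran from 33231519 to 59317510 counts, with both ends among the 48 h libraries, and from 38031542 to 56445274 in the 15 others.

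**Figure D1:**
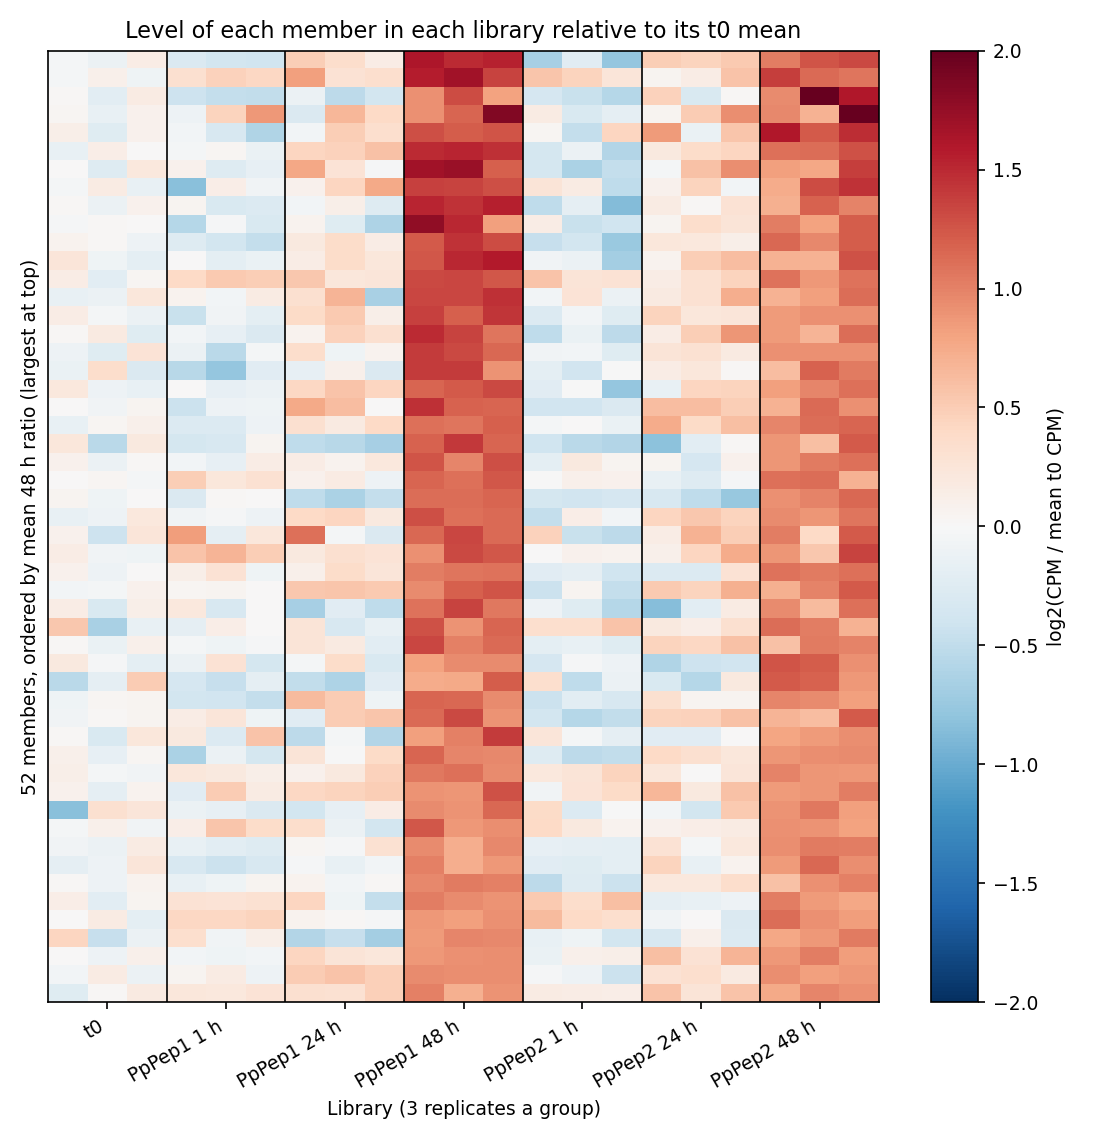
Level of the 52 members (rows, largest mean 48 h ratio at the top) in the 21 libraries (columns, 3 a group), as log2 of CPM over the mean t0 CPM of the gene. Red is above t0 and blue below it, and the 6 columns of 48 h are red throughout while those of 1 h are mostly pale or blue.

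Before 48 h the members lay on both sides of t0, within the flat band that the rule set, so their scatter there is no result about them. At 1 h their median ratio to t0 was 0.959 with PpPep1 and 0.883 with PpPep2, beside 0.906 and 0.903 for all genes inside the t0 limits, and 27 of 52 lay below t0 with both peptides and 12 above it with both, as 64.8% and 21.2% of all genes inside the limits did. At 24 h the medians were 1.18 with PpPep1 and 1.19 with PpPep2, where all genes inside the limits had 0.943 and 1.00. By then 32 members lay above t0 with both peptides and 6 below it with both, as 29.4% and 43.8% of the genes inside the limits did. The rule used the 24 h means, and the same t0 mean underlies the ratios of 24 and 48 h, so nothing is read from these differences. The levels stood in the order 1, 24 and 48 h with both peptides in 34 members. The rule fixed the step from 24 to 48 h, since it kept every 24 h mean under 1.5 times t0 and asked for 1.8 at 48 h. Only the order of 1 and 24 h was open. The share of all genes in that order was not counted, so nothing is read from the 34. Only 4 members reached 1.3 times t0 at 24 h with both peptides. The 6 members below t0 at 24 h had median 24 h ratios of 0.71 with PpPep1 and 0.862 with PpPep2, and their 48 h ratios had medians of 2.16 and 1.88.

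The replicates of 48 h were close to each other in the median over the members, which were chosen by these same values. In single members the coefficient of variation over replicates reached 35.5% at PpPep1 48 h and 52.1% at PpPep2 48 h. Taking each library by itself, the median ratio of the members was 2.24, 2.24 and 2.23 at PpPep1 48 h and 1.88, 1.93 and 2.08 at PpPep2 48 h, against 1.02, 0.936 and 1.04 at t0. Single libraries had 47 to 50 members at 1.8 times t0 or more at PpPep1 48 h and 36 to 44 at PpPep2 48 h, against 0 at t0 and 0 to 3 in the libraries of 1 and 24 h. The summed level of the 52 genes was 3881 ± 49.3 CPM at PpPep1 48 h and 3412 ± 130.4 CPM at PpPep2 48 h, against 1684 ± 53.8 CPM at t0. The most abundant member made up 25.2% of the t0 sum.

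In all 52 members every 48 h library lay above every t0 library, and the same held for 15.8% of all genes inside the t0 limits; the rule used these levels, so nothing is read from the difference. In 42 members the 6 libraries of 48 h also lay above all 15 others, which held for 5.2% of the genes inside the limits. In each of the remaining 10 members the highest of the 15 other libraries was one of 24 h, after PpPep2 in 7 of them. The lowest 48 h library was one of PpPep2 in each. In some of these members libraries of 1 h also lay above the lowest 48 h library.

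ATPAP15 (PRUPE_8G201400) carries the name of Arabidopsis purple acid phosphatase 15, an enzyme known in that species to release phosphate from phytate. It had 13.9, 12.4 and 14.7 CPM in the t0 libraries, 13.3, 12.8 and 13.5 CPM at PpPep1 1 h, and 16.3, 15.5 and 11.8 CPM at PpPep1 24 h. At PpPep1 48 h it had 34.5, 27.5 and 29.9 CPM, so that the 3 libraries lay above all libraries of the earlier times. After PpPep2 it had 11.9, 12.3 and 11.6 CPM at 1 h, 18.6, 18.3 and 20.5 CPM at 24 h, and 20.5, 28.1 and 27.2 CPM at 48 h. The lowest PpPep2 library of 48 h thus fell within the range of PpPep2 24 h, where the mean was 1.40 times t0, while PpPep1 24 h was at 1.06 times t0. The ratios to t0 at 48 h were 2.24 with PpPep1 and 1.85 with PpPep2, and the second is close to the limit of 1.8. The counts behind these values ran from 442 to 1614 a library. ATPAP15 met the rule in 18 of 21 runs that left out 1 library each.

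Names were found for no other member, in the count table or in the tables of the study that pair peach identifiers with names, so the others are given by their levels and, where a result turns on one, by identifier. The largest mean ratio of the 2 peptides at 48 h belonged to PRUPE_3G178500. It had 470, 427 and 443 CPM at PpPep1 48 h and 310, 363 and 380 CPM at PpPep2 48 h, against 148, 141 and 169 CPM at t0. All 3 PpPep1 libraries lay above the 3 PpPep2 libraries, and both groups lay well above t0. Before that, its means were 0.783 and 0.69 times t0 at 1 h with PpPep1 and PpPep2, and 1.26 and 1.40 times t0 at 24 h. These all lie inside the rule's flat band, and all genes inside the t0 limits had medians of 0.906 and 0.903 at 1 h. No course over time is read from them.

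PRUPE_2G200400 was the most abundant member. It had 992, 1149 and 1046 CPM at PpPep1 48 h and 937, 822 and 978 CPM at PpPep2 48 h, against 445, 430 and 397 CPM at t0. Here too the PpPep1 libraries of 48 h lay above those of PpPep2, with 2.51 and 2.15 times t0 as the ratios of the means. Its 1 h means were 0.777 and 0.70 times t0 and its 24 h means 1.18 and 1.14 times t0, with PpPep1 and PpPep2 in that order. The next abundant members had means of 301.2, 213 and 176 CPM at PpPep1 48 h and 222, 203 and 177 CPM at PpPep2 48 h, against 119, 111 and 95.9 CPM at t0, with ratios between 1.83 and 2.52.

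**Figure D2:**
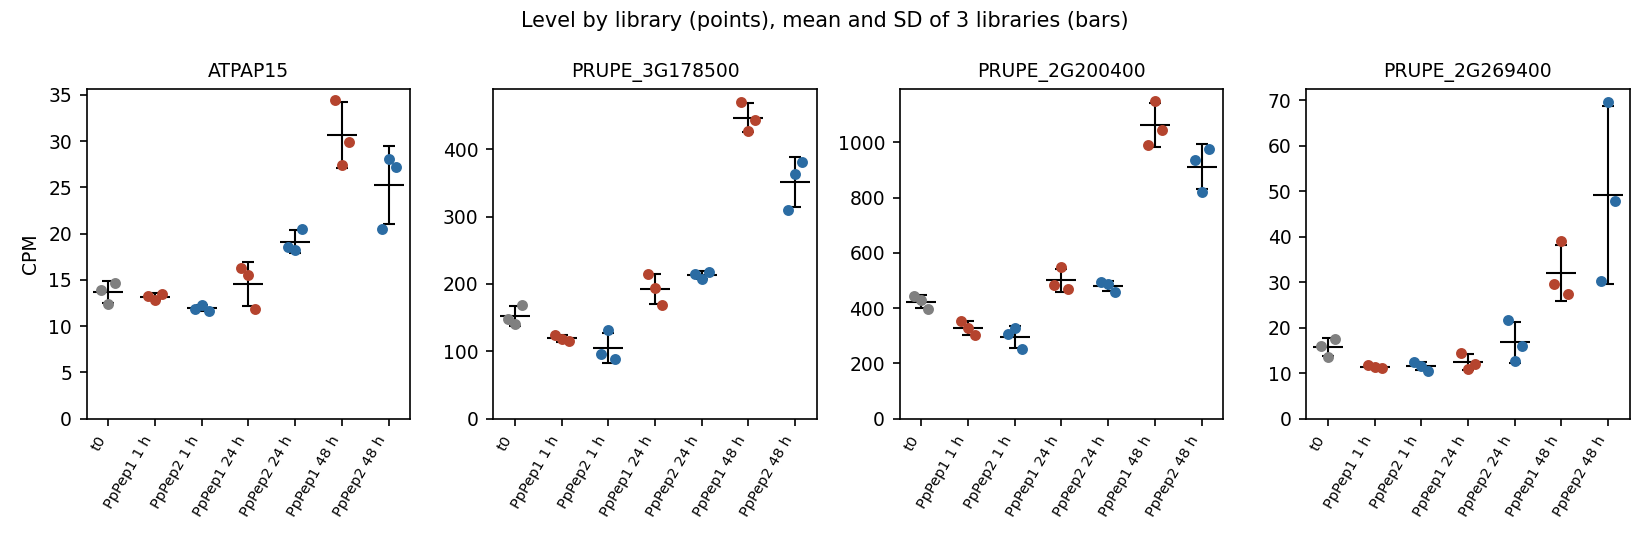
CPM of ATPAP15 and 3 other members in each library (points) with the mean and SD of 3 libraries (black bars), for t0 and for PpPep1 (red) and PpPep2 (blue) at 1, 24 and 48 h. In PRUPE_3G178500 and PRUPE_2G200400 the 3 PpPep1 points of 48 h lie above the 3 PpPep2 points, while PRUPE_2G269400 has its highest point, 69.6 CPM, at PpPep2 48 h.

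At t0, 21 members had a mean under 5 CPM, 21 from 5 to under 50 CPM and 10 of 50 CPM or more, and their median was 11.2 CPM, against 16.5 CPM for all genes inside the t0 limits. From the least to the most abundant class, the median ratios at 48 h were 2.26, 2.24 and 2.07 with PpPep1 and 1.95, 1.96 and 1.88 with PpPep2. The rule's limit of 1.8 cut these ratios off from below, so nothing about abundance is read from how close the medians are. The spread over replicates was wider in the least abundant class, with a median coefficient of variation of 13.1% at PpPep1 48 h and 12.8% at PpPep2 48 h, against 6.33% and 8.99% in the most abundant. In 15 members some library had under 100 counts, and the lowest count of any member was 28.

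Membership was narrow at its edge. Of the 52 members, 28 had their lower 48 h ratio between 1.8 and 1.9, 9 between 1.9 and 2, and 15 at 2 or more, whereas 23 flat genes fell between 1.7 and 1.8. The 3 members just inside had lower ratios of 1.803, 1.82 and 1.82, and the 3 genes just outside 1.79, 1.79 and 1.79, all set by PpPep2 48 h. When each library was left out in turn the rule found 40 to 62 genes, with the fewest without PpPep2 48 h replicate 3 and the most without t0 replicate 1. Without t0 replicate 2, 31 of the 52 members still met it. In all 21 such runs, 9 members met the rule, whose 48 h ratios ran from 2.04 to 2.81 with PpPep1 and from 1.88 to 3.13 with PpPep2, and PRUPE_2G269400 was one of them.

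In the model of all genes the members passed the edgeR quasi-likelihood test (adjusted p under 0.01, log2FC above 1) in 43 of 52 cases for PpPep1 48 h against t0, where 2.17% of the 18586 genes tested were called higher, and in 27 of 52 for PpPep2 48 h against t0, where 1.42% were. All 52 passed the filter on low counts, and 0 were called lower, where 2.35% of all genes tested were at PpPep1 48 h and 1.18% at PpPep2 48 h. With no threshold on log2FC the counts were 52 and 51 (14.5% and 9.72% of all genes were called higher). Both contrasts use the t0 libraries that chose the genes and share them with each other, so these counts describe the set and are no evidence about it. ATPAP15 had a log2FC of 1.22 ± 0.12 against t0 with PpPep1 and 0.94 ± 0.12 with PpPep2 (edgeR, ± SE), so the second lay under the log2FC threshold. The same levels chose ATPAP15, so these values describe the gene and are no evidence about it.

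The peptides were also set against each other at 48 h, at doses of 100 nM for PpPep1 and 1000 nM for PpPep2, which are not matched, and no member passed the test. The 48 h means of both peptides chose the members, with PpPep2 as the lower of the 2 in most of them, so the counts and medians of this contrast over the members describe the set and are no evidence that the peptides differ in it. By edgeR, 0 of 52 members were called higher or lower (adjusted p under 0.01, log2FC past 1), as 0.0% and 0.00538% of all genes tested were, and DESeq2 also called 0 members, where it called 0.00455% of all genes higher and 0.00455% lower. At an unadjusted p under 0.05, 14 members were higher at PpPep1 48 h and 1 was lower, and of all genes, which were not chosen by their 48 h values, 5.13% and 5.31% were. The log2FC of PpPep1 48 h over PpPep2 48 h was above 0 in 44 members, with a median of 0.19, while 51.1% of all genes tested were above 0 with a median of 0.00. It ran from -0.62 to 0.55 over the members. The 95% interval of the difference lay within -1 and 1 in 51 of 52 members, and the exception was PRUPE_2G269400. The share of all genes with such an interval was not counted. The rule also kept only genes raised with both peptides, so nothing is read from the 51. Smaller differences than 1 lay inside the intervals of many members, so equal levels were not shown.

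ATPAP15 had a log2FC of 0.29 with a 95% interval of 0.04 to 0.54 between the peptides, and did not pass (edgeR adjusted p = 0.402). PRUPE_3G178500 had 0.36 with an interval of 0.12 to 0.61 (edgeR adjusted p = 0.294), and PRUPE_2G200400 had 0.23 with an interval of 0.03 to 0.44 (edgeR adjusted p = 0.414). The gene most on the side of PpPep2 was PRUPE_2G269400, with 29.7, 39.0 and 27.4 CPM at PpPep1 48 h and 30.3, 69.6 and 47.8 CPM at PpPep2 48 h, against 16.1, 13.6 and 17.5 CPM at t0. The 2 peptides overlapped in this gene, and its log2FC was -0.62 with an interval of -1.12 to -0.12 (edgeR adjusted p = 0.367). In CPM, 13 members had all 3 PpPep1 libraries above the 3 PpPep2 libraries at 48 h and 0 had them below, where 6.36% and 10.2% of the genes inside the t0 limits did. The 48 h means chose the members, with PpPep2 the lower in most, so nothing is read from this difference.

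**Figure D3:**
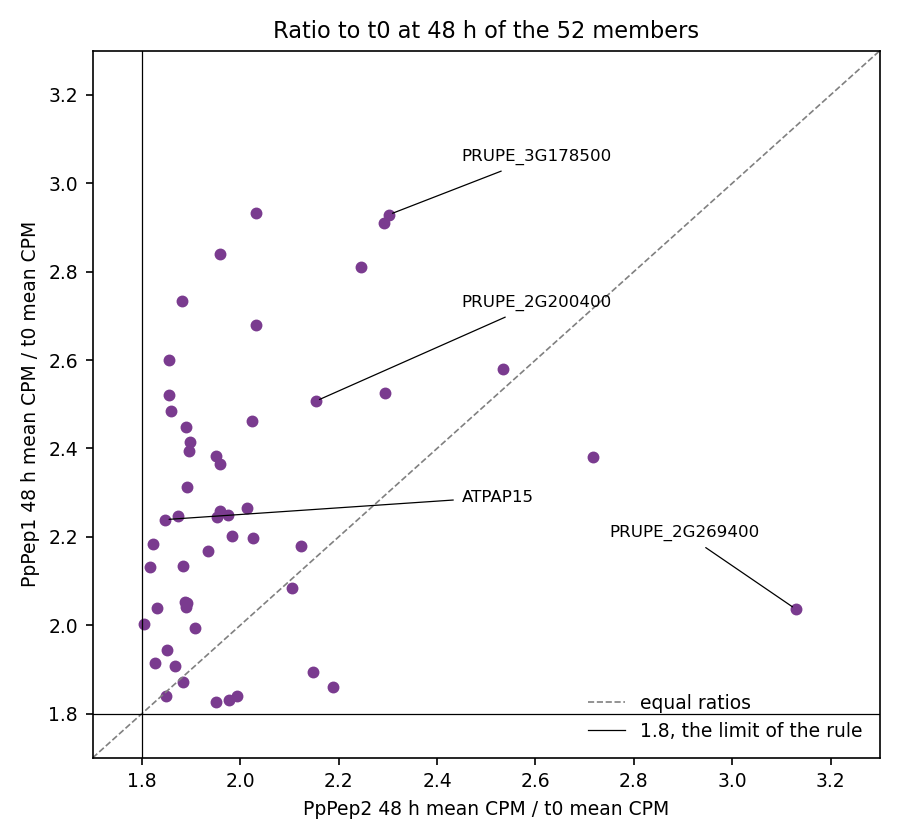
Mean CPM at 48 h over mean t0 CPM for the 52 members, PpPep1 on the vertical and PpPep2 on the horizontal axis, with the rule's limit of 1.8 (thin lines) and equality (dashed). Of the points, 42 lie above the dashed line and 10 below it, and many lie close to the limit for PpPep2.

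**Figure D4:**
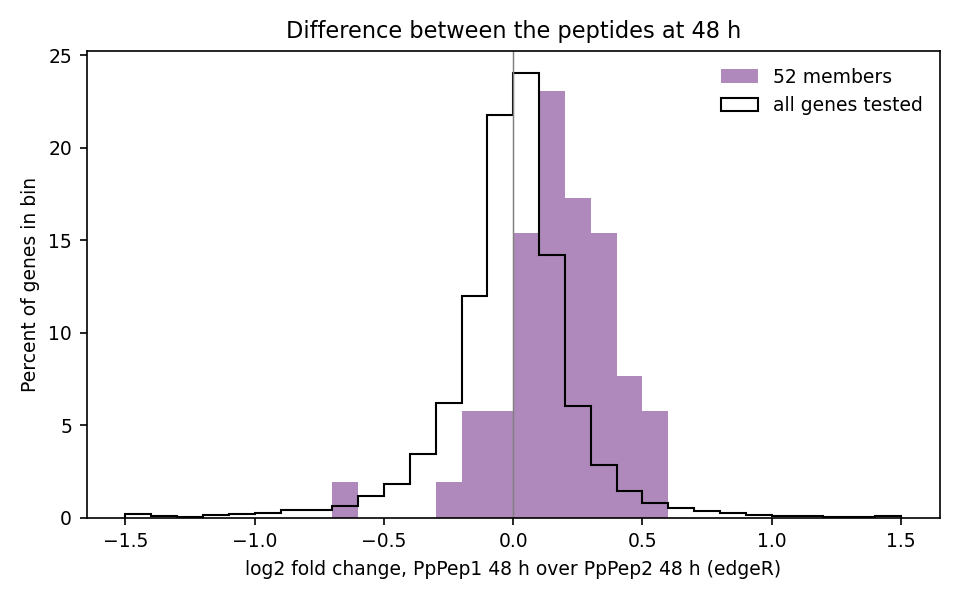
Share of genes (percent) by log2FC of PpPep1 48 h over PpPep2 48 h from edgeR, for the 52 members (filled) and all 18586 genes tested (outline, with values past 1.5 placed in the end bins). The members, which were chosen by their 48 h values, centre at 0.19 and all genes at 0.00.

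Peach identifiers give the chromosome and a locus number that rises along it, and neither entered the rule. Members were found on all 8 chromosomes, with 10 on chromosome 1, 10 on chromosome 2, 8 on chromosome 3 and 2 on chromosome 4. Chromosome 2 held 19.2% of the members and 12.2% of the flat genes, and chromosome 4 held 3.85% of the members and 9.83% of the flat genes. There were 0 pairs of adjacent members and 3 pairs within 20 genes of each other. A stretch of 416 listed genes near the end of the numbering on chromosome 2, from PRUPE_2G269400 on, held 6 members among its 204 flat genes. It was picked after the members were seen, and it was not tested.

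The study's own lists held few flat genes, and only flat genes could be members. Its WRKY and RT-qPCR lists came from these same samples. Its network joined genes chosen for RT-qPCR to their neighbours by published Arabidopsis links. Of 26 WRKY transcription factor genes, 1 was flat at 1 and 24 h and 0 were members. Of 192 genes of the signalling network, 51 were flat and 0 were members, and of 18 genes with RT-qPCR assays 0 were flat. Members made up 0.424% of all flat genes, so with this many flat genes a count of 0 is near that share and is no result about the members. Leaf and cell type markers could not be checked, because the table pairs no identifier with the markers' names apart from AtPP2-A13, which had 108 CPM at PpPep1 48 h and 120.4 CPM at PpPep2 48 h, against 186 CPM at t0. At 1 h AtPP2-A13 had 147 CPM with PpPep1 and 122 CPM with PpPep2, and at 24 h 170 and 162 CPM, so levels under t0 were not particular to 48 h. It is 1 gene and does not define a cell type, and its part in the results was not tested.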

How the data were processed

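Poly-A RNA of 21 leaf blade samples was sequenced as stranded read pairs. Per the sample labels and the study's methods, the authors aligned reads with STAR 2.5.3a, deposited expected counts per gene from RSEM 1.3.0 as whole numbers with no normalization, and used DESeq2 1.20.0 for their comparisons. Whether duplicate reads were removed is not given in the sources used here. The annotation build is not used for coordinates here, and no sequences or positions are given.

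CPM were counts over the column total. Columns were matched to libraries by total count (0.95 to 0.99 of the read pairs in single genes) and by the number of genes holding 25% of counts. This match held for 21 of 21 columns, and 18 fitted 1 library only. Of the 3 that fitted 2 libraries, each kept its own heading. Shares of counts per chromosome were also compared. By these, 7 of 21 columns were nearest to their own library and 14 to a library of the group they are taken as, 5 of them among the 9, and the 3 taken as PpPep1 48 h were nearest to a 48 h library.

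All 27107 genes went to edgeR 4.0.16 (R 4.3.3): filterByExpr kept 18586, and 1 model of all 7 groups was fitted with TMM scaling and tested by quasi-likelihood, robust option on, Benjamini-Hochberg adjustment over all genes tested, and calls at an adjusted p under 0.01 with log2FC past 1. SE is the size of log2FC over the square root of F. The p-values measure the spread between these replicates. The edgeR step was tested on simulated counts. Other settings were DESeq2 1.42.0, RLE scaling, other filters, a replicate block, 2-group models, other limits of the rule and leaving out each library. Named genes are those paired with a name, or with the largest ratio or level; at most 2 unnamed identifiers are given in each direction. The members and lists were chosen with earlier results of these data known. One gene was excluded by the rule. No 2 libraries were near-identical.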

Additional observations from a re-analysis of the deposited data

How the results depend on the processing

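The number of genes meeting the rule was 52, and it fell to 15 with a 48 h limit of 2, to 7 with a narrower flat band, and to 0 with the headings as they stand. It was 118 with only the 12 columns whose headings fit, chosen after seeing the data. With TMM-scaled CPM it was 57, of which 44 were members, and with medians it was 57, of which 38 were. Leaving out 1 library gave 40 to 62. The median ratio at PpPep1 48 h, 2.24, was 2.33 with TMM-scaled CPM, 2.17 with medians and 2.18 to 2.27 with a library left out, shifts larger than the SD between its libraries. At PpPep2 48 h a library left out gave 1.903 to 2.02. The members called at PpPep2 48 h against t0, 27, were 51 with no log2FC threshold, 15 in a model of only the 2 groups and 22 to 32 with a library left out. At PpPep1 48 h against t0, 43 were called, and 38 to 47 with a library left out.

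Between the peptides, 0 members passed under each of 13 alternatives, with the lowest adjusted p of a member between 0.0513 and 0.482 (0.0513 from DESeq2). The median log2FC ranged from 0.17 to 0.25, and 38 to 45 members were above 0. Correlations between the deviations of same-numbered libraries ran from -0.245 to 0.251 and were above 0.1 in 12 of 63 pairs. Libraries of different numbers were not compared, so whether the replicate numbers pair the samples was not settled. With the replicate block, 0 members were called between the peptides, 44 at PpPep1 48 h against t0 and 26 at PpPep2 48 h against t0. In 15 members some library had under 100 counts, and the part of depth in the spread was not tested.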

Other observations

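The table names another gene with the same prefix as ATPAP15, ATPAP16 (PRUPE_7G050500), which is no member and was looked up after the values of ATPAP15 had been seen. It had 5.45 ± 0.29 CPM at PpPep1 48 h and 4.59 ± 0.30 CPM at PpPep2 48 h, against 2.80 ± 0.44 CPM at t0 (SD, n = 3 each). At 24 h it stood at 1.51 times t0 with PpPep1 and 1.41 times with PpPep2, the first just past the flat band, and at 48 h at 1.95 and 1.64 times t0. Among 191 flat genes with a name, 1 stood at 1.8 times t0 or more in either group of 48 h, and that was ATPAP15. Among all 12274 flat genes, 52 did so in both groups, 73 at PpPep1 48 h alone and 16 at PpPep2 48 h alone. A count of 1 among so few named genes is thus no result about ATPAP15.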
